A study of Mus musculus with 12 samples.

Results

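The keratins are the intermediate filament proteins of epithelial cells, and the keratin family was followed here through every gene of the count table whose symbol is Krt followed directly by a digit. That rule left out the keratin-associated genes (Krtap) and the unrelated Krtcap and Krtdap genes, and it returned 54 keratins among the 25867 genes with a symbol. The RNA came from thymic epithelial cells (TECs), which instruct developing T cells and were sorted out of cultured thymic lobes of C57BL/6 mouse embryos (E15.5, the embryonic day). All 12 cultures were first kept in 1.35 mM 2'-deoxyguanosine for 4 to 5 days, which removes developing T cells, and then for 3 days with 10 µg/mL of an agonist antibody against RANK, a receptor that drives the maturation of medullary TECs. There were 4 groups of 3 biological replicates. Control cultures carried a genotype labelled only as control, with wt in the column names of the count table, and received tamoxifen. Kat7 knockout cultures carried RosaCre-ERT2 with Kat7fl/fl, that is, floxed Kat7 and a recombinase switched on by tamoxifen, and also received tamoxifen; both of these groups thus share the drug. Wild-type cultures received either the solvent DMSO or WM-3835, an inhibitor of KAT7, the histone acetyltransferase also known as HBO1. The compound is WM-3835 in the treatment labels, whose spelling is used here, and WM-3825 in the sample titles. Limits of these models are that RosaCre-ERT2 is not restricted to epithelium, so other cells of the lobe can lose Kat7 too, that the labels do not say which alleles the control genotype holds, and that neither the dose of the inhibitor nor its duration is labelled.

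Keratin filaments are built from obligate pairs of a type I (acidic) and a type II (basic) keratin, and they anchor to desmosomes between cells and to hemidesmosomes at the basement membrane. Which pair a cell makes is characteristic of its kind: Krt8 and Krt18 mark simple epithelia, Krt5 and Krt14 the basal layer of stratified epithelia, Krt1 and Krt10 the layers above it, and a large set is made only in the root sheath or the shaft of the hair. In the thymus, Krt8 and Krt18 are the usual keratins of cortical TECs, Krt5 and Krt14 those of medullary TECs, and medullary TECs also transcribe keratins of other tissues at low level. The members were sorted by these textbook roles into simple (5 genes), basal (3), stress and appendage (4), mucosal and corneal (4), epidermal suprabasal (5), hair root sheath (9), hair shaft (15) and other keratins (9).

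The family sits in a pair of clusters. On the mm10 assembly, 27 type I keratins lie on chromosome 11 between 99232761 and 100269951, and 26 type II keratins lie on chromosome 15 between 101348315 and 102032026, joined there by the type I gene Krt18. RefSeq promoter windows (GRCm38.p6, the same assembly) were found for 36 of the 54 members, as 37 promoters. The letters TATAA, read on the transcribed strand and lying wholly between 40 and 20 bases before the start, occurred in 17 of the 37 (45.9%) against 3.38% of all 32851 promoters, and on the opposite strand (TTATA) in 1 (2.70%) against 1.52%. ATAAA, searched after the sequences had been seen and overlapping TATAA wherever the letters are TATAAA, occurred in 20 (54.1%) against 3.89% on the transcribed strand, and in 0 against 1.90% on the other (TTTAT). Either of them stood in that window in 24 keratin promoters (64.9%), against 5.32% of all. GGGCGG, the core of a GC box, occurred anywhere in the 250 bases before the start in 1 keratin promoter (2.70%) against 20.5% of all, and its reverse CCGCCC in 2 (5.41%) against 19.5%. By class, TATAA stood in 1 of 4 simple, 0 of 2 basal, 3 of 4 epidermal suprabasal, 5 of 8 root sheath and 5 of 9 hair shaft promoters. Some of the counted starts lie inside the annotated gene, that of Krt14 among them, and Krt15 has no entry. Among the basal keratins only Krt5 thus has an entry at the annotated end of the gene. The 100 bases before the start are printed, 5′ to 3′ on the transcribed strand, for the members whose values are given library by library, which have an entry, and whose tabled start lies at the annotated end of the gene; capitals mark TATAA or ATAAA within the window. Krt8, Krt18 and Krt5 are the abundant keratins of these cells, and the others are members called in a comparison.
Krt18: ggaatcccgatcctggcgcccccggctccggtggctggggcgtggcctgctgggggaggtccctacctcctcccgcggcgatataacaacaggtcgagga
Krt8: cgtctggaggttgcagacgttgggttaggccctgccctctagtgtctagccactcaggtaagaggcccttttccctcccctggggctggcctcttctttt
Krt5: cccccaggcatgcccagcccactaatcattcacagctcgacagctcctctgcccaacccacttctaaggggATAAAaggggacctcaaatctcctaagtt
Krt7: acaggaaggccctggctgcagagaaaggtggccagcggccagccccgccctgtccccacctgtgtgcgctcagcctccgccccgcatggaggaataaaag
Krt20: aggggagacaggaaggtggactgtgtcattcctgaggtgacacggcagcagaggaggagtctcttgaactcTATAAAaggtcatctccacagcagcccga
Krt9: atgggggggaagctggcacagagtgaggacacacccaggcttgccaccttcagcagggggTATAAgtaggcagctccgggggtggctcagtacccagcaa
Krt72: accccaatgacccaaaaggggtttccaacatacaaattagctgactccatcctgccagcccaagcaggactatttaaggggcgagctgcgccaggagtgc
Krt75: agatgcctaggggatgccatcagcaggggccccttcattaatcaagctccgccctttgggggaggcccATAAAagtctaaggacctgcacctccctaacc
Krt84: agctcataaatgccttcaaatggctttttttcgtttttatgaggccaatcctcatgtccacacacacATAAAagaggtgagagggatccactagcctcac
In order, these windows lie at chr15:102028116-102028215, chr15:102004343-102004442, chr15:101712906-101713005, chr15:101412303-101412402, chr11:99438154-99438253, chr11:100193247-100193346, chr15:101786521-101786620, chr15:101573905-101574004 and chr15:101532821-101532920. Krt7 and Krt18 are on the plus strand and the other 7 on the minus strand. A match is a description of the letters, and the absence of one says only that they are not in this window.

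Each library held between 26656847 and 52368012 counts, and keratins made up 0.693% to 1.16% of the counts of genes with a symbol. Kat7 stood at 80.5 ± 7.38 CPM (counts scaled to the library total, SD, n = 3) in control and at 0.762 ± 0.138 in knockout libraries. All 12 markers listed for TECs were detected, with a summed level of 12703 to 15580 CPM in control and 13899 to 14541 in knockout libraries, and of 14982 to 17058 with DMSO against 10906 to 13144 with WM-3835, the latter without overlap. The knockout sum holds moves in both directions: 4 of the 12 were called lower and 2 higher, 50% against 14.2% of all genes. Between control and knockout, Prss16 went from 2594 ± 769 to 4085 ± 321 CPM, Ly75 from 245 ± 44.0 to 413 ± 21.2 and Ccl21a from 413 ± 102 to 165 ± 13.0. The part of the TEC markers in the keratin result was not tested. Summed over 8 fibroblast markers, control libraries held 127 to 197 CPM, knockout libraries 62.5 to 85.4, DMSO libraries 58.0 to 75.6 and WM-3835 libraries 51.9 to 65.6, so the control group stood apart. The 5 endothelial markers summed to 8.42 to 20.7 CPM in control, 6.20 to 10.6 in knockout, and 1.61 to 3.93 in the wild-type libraries. Tek made most of that sum in control (14.1 ± 6.73 CPM). Xist, the RNA of the inactive X chromosome, was at 2.34 to 3.17 CPM in the controls and at 1709, 1191 and 4.94 CPM in knockout 1, 2 and 3, while the DMSO and WM-3835 libraries held 846 to 2118 CPM. Knockout 3 was therefore the only knockout library that resembled the controls in Xist. In these bulk samples, fewer cells of a type and less RNA per cell cannot be told apart.

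Levels are given as RPKM, counts divided by the deposited gene length and by the TMM-scaled library total, which can be compared between genes. A group of 4 keratins dominated: Krt5, Krt18, Krt8 and Krt17 together made 92.3% to 97.4% of the summed keratin RPKM of each library, and by mean RPKM they ranked 14, 18, 28 and 55 among all 25867 genes. Krt18 was at 1436, 1785 and 1402 RPKM in the controls, 1645, 1486 and 1435 in the knockouts, 1580.1, 1808 and 1459 with DMSO and 1283, 1479 and 1280.1 with WM-3835. Its partner Krt8 was at 1001, 1189 and 936 in the controls, 1109, 1029 and 1040.2 in the knockouts, 1060.0, 1244 and 968 with DMSO and 930.3, 1108 and 893 with WM-3835. The 4 groups overlapped for both simple keratins, and the ratio of Krt18 to Krt8 stayed within 1.33 to 1.51 in all 12 libraries. Krt5, the basal type II keratin, was at 2175, 2337 and 2172 in the controls, 2090.5, 2149.8 and 2044 in the knockouts, 1400.0, 1468 and 1152 with DMSO and 1211, 1144 and 1066 with WM-3835. Every control and knockout library thus held more Krt5 than any wild-type library. Krt17, a type I keratin of appendages and of wounded or stressed epidermis, was at 802, 804 and 622 in the controls, 622, 641 and 601 in the knockouts, 723, 774 and 599.7 with DMSO and 556, 541 and 524 with WM-3835, with the WM-3835 group lowest.

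The order of these levels differed by group. In control and in knockout libraries Krt5 came first, above Krt18, Krt8 and Krt17, whereas in all DMSO and WM-3835 libraries Krt18 came first. In the WM-3835 group Krt5 and Krt8 were close (1140.2 ± 72.7 against 977 ± 115 RPKM), with Krt5 above Krt8 in each library (ratios of 1.30, 1.03 and 1.19). The DMSO libraries shared this, with ratios of 1.32, 1.18 and 1.19. Krt14, the basal type I partner of Krt5, was far below it: the ratio of Krt5 to Krt14 was 25.1 to 55.0 in the controls, 84.9 to 98.4 in the knockouts, 47.1 to 68.5 with DMSO and 59.2 to 82.5 with WM-3835. Krt17, likewise of type I, exceeded Krt14 by 9.25 to 37.8 times. After the leading 4 came Krt6a, Krt19, Krt14, Krt7, Krt6b and Krt16, with mean RPKM over all libraries of 83.2, 33.3, 29.6, 27.3, 10.6 and 6.44. Parts of some transcripts recur in other genes, which makes their counts less certain: 23.5% of the 75-base windows of Krt8 do, mainly in the pseudogene Krt8-ps, 28.9% of those of Krt16, 7.77% of those of Krt5 and 5.91% of those of Krt14.

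**Figure D1:**
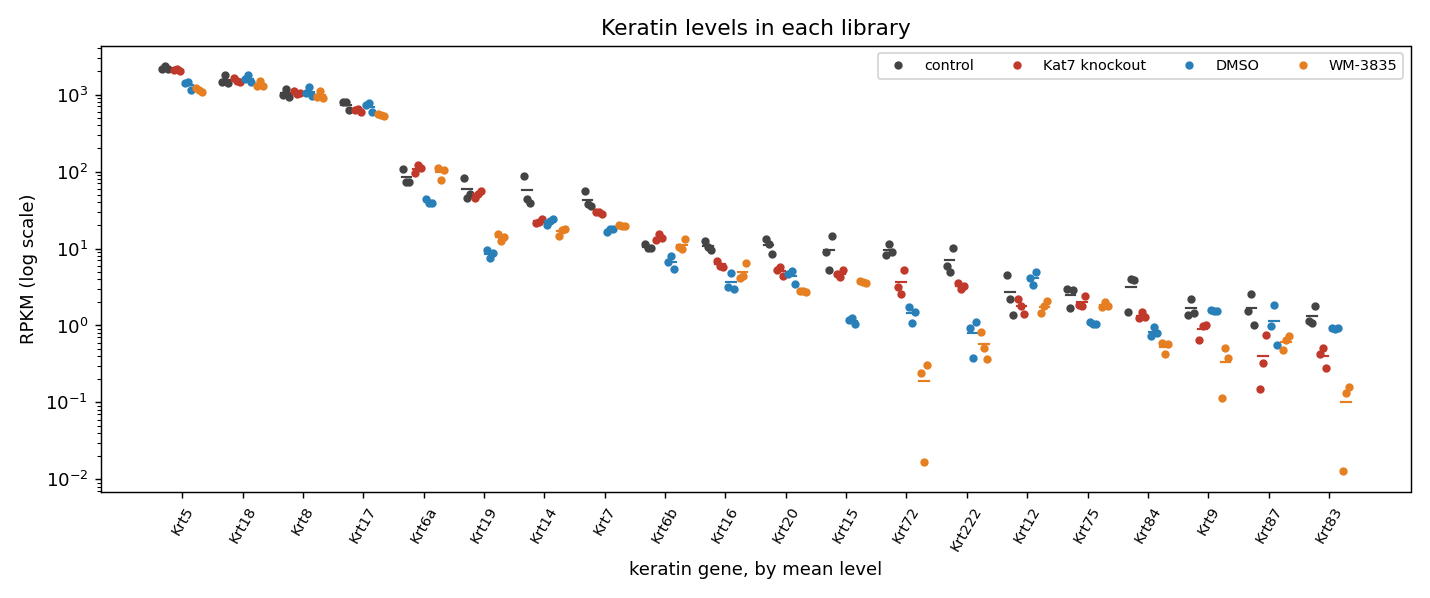
RPKM on a log scale for 20 keratins, those called in either main comparison and the 10 with the highest mean, in order of mean level (points, libraries; lines, group means, n = 3; colours, the 4 groups). Krt5, Krt18, Krt8 and Krt17 lie far above all others in every library, and the spread within the control group is wide for many of the others.

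Replicates differed most within the controls. Over the 20 keratins of the plot of levels, the coefficient of variation had a median of 26.6% in the controls, 10.5% in the knockouts, 12.6% with DMSO and 13.6% with WM-3835. Control 1 was the highest control library for 9 of the 20, control 2 for 8 and control 3 for 3. Krt14 shows the size of it, at 86.8 RPKM in control 1 against 44.4 and 39.5 in the other controls, and Krt84 the opposite order, at 1.48 in control 1 against 4.07 and 3.95.

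Summed by class, the simple keratins reached 2697 ± 331 RPKM in control (SD, n = 3), 2667 ± 146 in the knockouts, 2737 ± 318 with DMSO and 2361 ± 227 with WM-3835, with overlapping groups. Krt8 and Krt18 make most of the simple total, and Krt5 most of the basal total. The other simple keratins were not level: mean RPKM in control and with DMSO was 59.6 and 8.55 for Krt19, 42.8 and 17.3 for Krt7, and 11.1 and 4.41 for Krt20. The basal total was 2294 ± 83.0 in control and 2122 ± 51.6 in knockout, but 1364 ± 165 in DMSO and 1161 ± 71.2 in WM-3835 libraries. Basal to simple, the ratio was 0.778 to 0.915 in control and 0.747 to 0.836 in knockout, against 0.479 to 0.532 in DMSO and 0.444 to 0.546 in WM-3835 libraries. The ratio of all type I to all type II keratins was 0.667 to 0.740, 0.658 to 0.704, 0.927 to 0.963 and 0.823 to 0.880 in the same order of groups. The share of Krt5 in the keratin total moved with both ratios: it was 37.7 ± 1.78% in control and 27.4 ± 1.00% in DMSO libraries.

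Hair and cornified keratins were rare throughout. The hair shaft keratins summed to 7.66, 10.9 and 12.2 RPKM in the controls and 3.03, 3.84 and 3.11 in the knockout libraries, and to 4.01, 5.55 and 3.54 in DMSO and 1.59, 2.07 and 2.03 in WM-3835 libraries. Root sheath keratins summed to 13.5, 17.7 and 16.8 in the controls, 6.74, 6.02 and 9.18 in the knockouts, 4.43, 4.04 and 3.43 with DMSO and 2.11, 3.01 and 2.95 with WM-3835. Within both pairs of groups, all 3 libraries of the Kat7-targeted group lay below all 3 of its reference for both hair classes. The log2 ratio of the group means was -1.63 for the hair shaft total in the knockout and -1.20 with WM-3835, and -1.13 and -0.56 for the root sheath total. Epidermal suprabasal keratins overlapped between control (14.7 ± 3.24) and knockout (12.4 ± 1.70), and mucosal and corneal keratins did too (6.79 ± 2.72 and 5.11 ± 2.24). In the wild-type cultures the mucosal and corneal total was 5.76 ± 0.688 with DMSO and 3.01 ± 0.242 with WM-3835, without overlap. The epidermal suprabasal total was 8.64 ± 0.642 with DMSO and 6.51 ± 1.29 with WM-3835, also apart. These totals are descriptions with no test, and single members weigh in them: in control, Krt72 had a mean of 9.56 RPKM within the root sheath class, and Krt84 one of 3.17 within the shaft class.

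**Figure D2:**
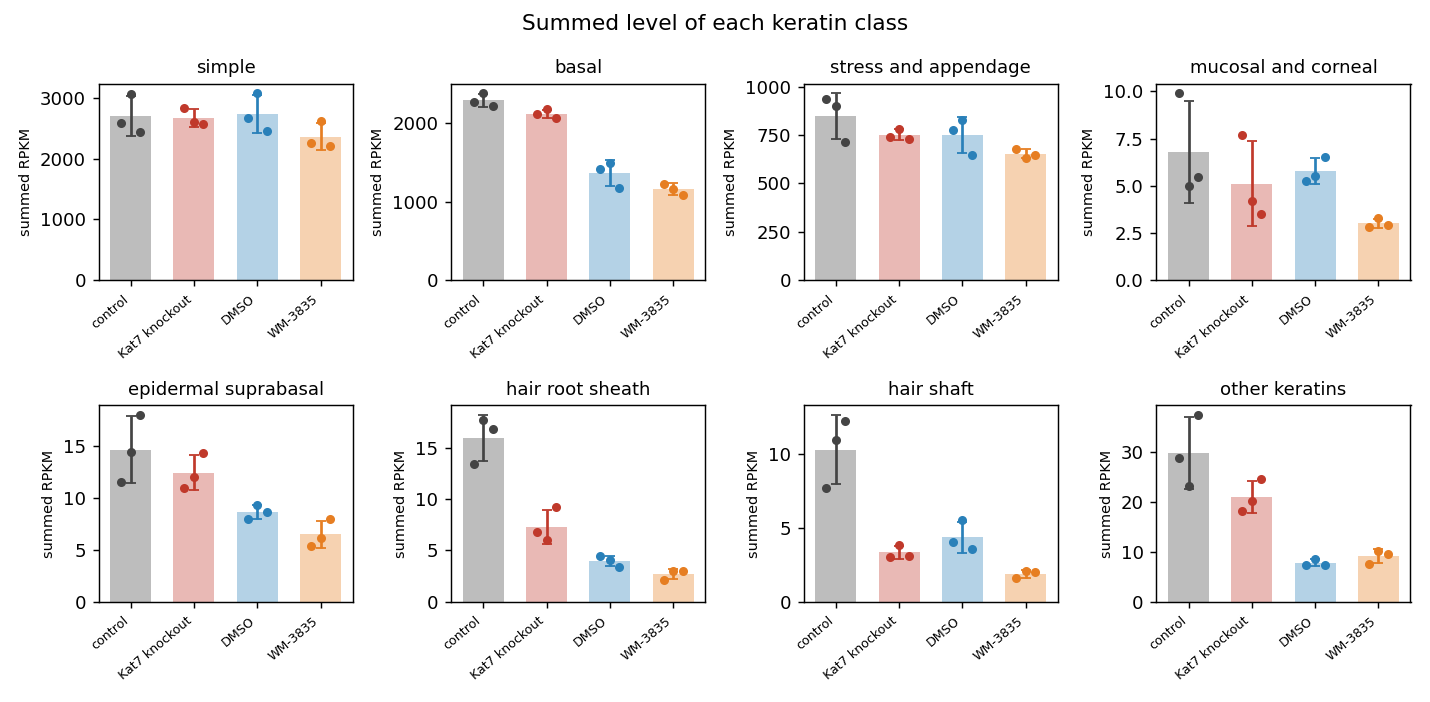
Summed RPKM of each keratin class, on a linear scale from 0 in each panel (bars, group means; error bars, SD; points, the 3 libraries of each group). The simple total, mostly Krt8 and Krt18, overlaps between the groups, and the basal total, mostly Krt5, is lower in both wild-type groups. The hair classes are lower in knockout than in control and lower with WM-3835 than with DMSO.

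A filter on low counts left 40 of the 54 keratins for testing. The 14 others were Krt24, Krt26, Krt27, Krt28, Krt31, Krt32, Krt33a, Krt33b, Krt34, Krt35, Krt39, Krt40, Krt82 and Krt88, of which 9 belong to the hair shaft and 3 to the root sheath. They had 3 to 119 counts over all 12 libraries together, at most 82 in any library, and counts in 1 to 7 libraries each. Every one of the 54 had a count somewhere, and 34 had counts in every library. The filter passes a gene that reaches its minimum in as many libraries as 1 group holds, so a keratin present in a single group can pass. Counts over the 40 are therefore descriptions, given beside the share of all 18670 tested genes.

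Deleting Kat7 was followed by lower transcript levels of 9 of the 40 tested keratins and by a call for higher level in 0 (6.12% of all genes were called higher). They were Krt14 and Krt15 of the basal class, Krt7 and Krt20 of the simple class, Krt16, the root sheath keratin Krt72, the hair shaft keratins Krt84 and Krt87, and Krt222. Of all tested genes 14.2% were called in this comparison and 8.06% were called lower, so that in this fit the keratins' 22.5% called lower lies above the background share. With the Xist level added to the model, 1 keratin was called lower, beside 330 of all 18670 genes. In the main fit the other 31 keratins, among them the abundant Krt5, Krt8, Krt18 and Krt17, were not called. The 3 knockout libraries lay below the 3 controls without overlap for 18 keratins (13.5% of all genes) and above them for 1, Krt6b (12.2% of all genes). The change was negative for 32 of the 40 keratins and for 51.4% of all genes, and its median was -0.64 against -0.01. At an unadjusted p under 0.05, 2 keratins were higher by edgeR's quasi-likelihood test, and DESeq2 and limma-voom called 0 higher.

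Krt14 had the change with the smallest adjusted p. It stood at 86.8, 44.4 and 39.5 RPKM in control and 21.2, 22.2 and 24.1 in knockout libraries, and the groups did not overlap (-1.34 on the log2 scale, SE 0.20, adjusted p = 0.00027). Krt15, another type I keratin of basal cells and of hair follicle stem cells, was at 8.97, 5.31 and 14.4 in control and 4.61, 4.26 and 5.21 in knockout libraries, also apart (-1.02 on the log2 scale, SE 0.27, adjusted p = 0.017). Control 2, the lowest control, was only just above knockout 3. Krt5 was at 2172 to 2337 in control and 2044 to 2150 in knockout libraries, apart but close (-0.09 on the log2 scale, SE 0.08, adjusted p = 0.49). Krt14 had adjusted p from 4.6e-07 to 0.06 over 23 alternative settings and lost its call with the Xist level modelled (0.06) and with knockout 3 alone (0.058). Krt15 had adjusted p from 0.00097 to 0.29 over 23 alternative settings and lost its call without control 3 (0.11), without knockout 1 (0.0539), without knockout 2 (0.068), with limma-voom (0.055), in a fit of the 6 libraries alone (0.06), with quality weights per group (0.055), with the Xist level modelled (0.29) and with knockout 3 alone (0.28).

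Among the simple keratins, Krt20, which is typical of the gut and of Merkel cells, was at 13.3, 11.5 and 8.52 in control and 5.27, 5.70 and 4.40 in knockout libraries (-1.12 on the log2 scale, SE 0.20, adjusted p = 0.0011). It was the keratin whose call was kept in all 23 alternative settings. Krt7, of ducts and other glandular epithelia, was at 55.3, 37.6 and 35.7 in control and 29.7, 29.8 and 28.5 in knockout libraries (-0.55 on the log2 scale, SE 0.13, adjusted p = 0.0096). Both groups were apart, with the knockout libraries close together. Krt19 was at 82.4, 45.2 and 51.3 in control and 45.1, 51.8 and 56.1 in knockout libraries, overlapping (-0.23 on the log2 scale, SE 0.17, adjusted p = 0.41). Krt8 and Krt18 had changes of 0.02 and -0.02 on the log2 scale with an SE of 0.10 each, and neither was called. Krt7 had adjusted p from 0.0016 to 0.15 over 23 alternative settings and lost its call without control 1 (0.0533), with the Xist level modelled (0.14) and with knockout 3 alone (0.15).

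In the stress class, Krt16 was at 12.6, 10.5 and 9.57 in control and 6.94, 5.93 and 5.82 in knockout libraries, apart (-0.80 on the log2 scale, SE 0.22, adjusted p = 0.022). Its usual type II partners had positive changes that did not pass the test. Krt6a was at 109, 73.2 and 72.4 in control and 95.9, 121 and 111 in knockout libraries, overlapping through control 1 (0.36 on the log2 scale, SE 0.14, adjusted p = 0.098), and without control 1 its change was 0.60 and was called. Krt6b was at 11.5, 10.3 and 10.0 in control and 12.8, 15.2 and 13.6 in knockout libraries (0.39 on the log2 scale, SE 0.15, adjusted p = 0.1). The control and knockout groups did not overlap for Krt6b. Krt16 had adjusted p from 0.0081 to 0.19 over 23 alternative settings and lost its call without control 1 (0.076), without knockout 2 (0.079), without knockout 3 (0.077), with quality weights per group (0.057), with the Xist level modelled (0.19) and with knockout 3 alone (0.18).

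Of the hair keratins, Krt72, a type II keratin of the inner root sheath, was at 8.13, 11.5 and 9.04 in control and 3.21, 2.59 and 5.29 in knockout libraries, apart (-1.37 on the log2 scale, SE 0.40, adjusted p = 0.027). Krt84, a type II hair shaft keratin also made in the tongue, was at 1.48, 4.07 and 3.95 in control and 1.24, 1.52 and 1.27 in knockout libraries, overlapping through control 1 (-1.24 on the log2 scale, SE 0.36, adjusted p = 0.028). Krt87 was at 1.54, 2.54 and 1.02 in control and 0.151, 0.323 and 0.743 in knockout libraries (-2.07 on the log2 scale, SE 0.63, adjusted p = 0.035). All 3 knockout libraries were below the controls for Krt87, on 10 to 39 counts each. Krt222, a truncated relative of the type I keratins, was at 5.92, 5.00 and 10.2 in control and 3.59, 3.00 and 3.27 in knockout libraries, apart (-1.10 on the log2 scale, SE 0.33, adjusted p = 0.035). All 6 tested hair shaft keratins had a negative change, with a median of -1.84, and 2 of them passed the test. Krt72 had adjusted p from 0.0019 to 0.46 over 23 alternative settings and lost its call without control 2 (0.081), without knockout 1 (0.095), without knockout 2 (0.12), with the Xist level modelled (0.46) and with knockout 3 alone (0.45). Krt84 had adjusted p from 0.0032 to 0.25 over 23 alternative settings and lost its call without control 2 (0.1), without control 3 (0.082), without knockout 1 (0.083), without knockout 2 (0.057), without knockout 3 (0.079), with limma-voom (0.082), in a fit of the 6 libraries alone (0.078), with quality weights per group (0.1), with the Xist level modelled (0.25) and with knockout 3 alone (0.22). Krt87 had adjusted p from 0.0071 to 0.62 over 23 alternative settings and lost its call without control 2 (0.11), without knockout 1 (0.11), without knockout 2 (0.1), without DMSO 1 (0.0516), in a fit of the 6 libraries alone (0.13), with quality weights per group (0.1), with the Xist level modelled (0.62) and with knockout 3 alone (0.44). Krt222 had adjusted p from 0.015 to 0.29 over 23 alternative settings and lost its call without control 3 (0.17), without knockout 1 (0.075), without knockout 2 (0.11), without knockout 3 (0.092), with the Xist level modelled (0.27) and with knockout 3 alone (0.29).

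The 9 lower calls depended on which knockout libraries entered. Without knockout 1, 4 of the 9 kept their call and Krt73 was newly called, and without knockout 2, 3 of the 9 kept it and Krt36 was newly called. With the Xist level added to the model the count fell to 1, Krt20, and with knockout 3 standing alone for its group it was also 1, again Krt20. All 9 changes stayed negative in both settings. With Xist modelled, the change was near its main value for Krt14 (-1.23 against -1.34), Krt16 (-0.93 against -0.80), Krt84 (-1.33 against -1.24), Krt222 (-1.19 against -1.10), Krt7 (-0.60 against -0.55) and Krt15 (-0.89 against -1.02), each without its call. It was smaller for Krt72 (-0.91 against -1.37) and Krt87 (-0.95 against -2.07). Over all genes the calls fell from 2646 to 503 with Xist modelled and to 704 with knockout 3 alone. The fibroblast markers moved with these keratins: 4 of the 8 (Dcn, Thy1, Col1a1 and Lum) were called lower in the knockout, and their summed level fell from 127 to 197 CPM to 62.5 to 85.4 CPM. Their part in the keratin result, and that of the Xist difference, was not tested beyond these settings.

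WM-3835 was followed by changes in both directions. Against DMSO, 5 of the 40 keratins were called higher, Krt6a, Krt6b, Krt15, Krt19 and Krt75, and 7 lower, Krt5, Krt17, Krt20, Krt72, Krt83, Krt9 and Krt12. Of all genes 18.7% were called in this comparison, 9.34% higher and 9.35% lower, against 12.5% and 17.5% of the keratins. The WM-3835 libraries lay above the DMSO libraries without overlap for 8 keratins (23.1% of all genes) and below them for 12 (23.0% of all genes). A negative change was found for 27 of the 40 keratins and 51.1% of all genes, with a median of -0.33 against -0.01. Without DMSO 1 or without DMSO 2, 4 keratins were called lower. limma-voom called 3 higher, and with quality weights per group 12 were called lower. Cell type markers moved with this comparison: 10 of the 12 TEC markers were called lower and 1, Epcam, higher, with a median of -0.60. The lower ones include Aire (-1.11, SE 0.08, adjusted p = 3.4e-08), the regulator of promiscuous transcription in medullary TECs, and Psmb11 (-1.26, SE 0.24, adjusted p = 0.00095), the proteasome subunit of cortical TECs. Of the 8 fibroblast markers 3 were called lower (Dcn, Pdgfrb and Thy1) and 1, Pdgfra, higher, and their summed level overlapped between the groups. The part of these markers in the keratin result was not tested.

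Krt6a gave the clearest rise. It stood at 44.4, 39.4 and 39.2 RPKM in DMSO and 109.6, 77.9 and 105 in WM-3835 libraries (1.25 on the log2 scale, SE 0.15, adjusted p = 7.5e-06). Krt6b, its near copy, was at 6.67, 8.11 and 5.38 in DMSO and 10.6, 9.95 and 13.2 in WM-3835 libraries (0.75 on the log2 scale, SE 0.16, adjusted p = 0.0021). Both are type II keratins that epidermis makes after wounding, and neither pair of groups overlapped. Of the 75-base windows of the Krt6a transcript 50.7% occur in another gene as well, mainly Krt6b, and for Krt6b the share is 39.6%, so how counts were divided between them is uncertain. The ratio of Krt6a to Krt6b was 4.86 to 7.28 in DMSO and 7.83 to 10.3 in WM-3835 libraries. Krt16 was at 3.11, 4.83 and 2.99 in DMSO and 4.09, 4.43 and 6.52 in WM-3835 libraries, overlapping (0.46 on the log2 scale, SE 0.23, adjusted p = 0.18). Krt17 went down within the same class (-0.37 on the log2 scale, SE 0.10, adjusted p = 0.0098), with all WM-3835 libraries below the DMSO libraries. Krt17 had adjusted p from 0.00022 to 0.067 over 23 alternative settings and lost its call without DMSO 2 (0.067).

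Krt15 rose from 1.18, 1.24 and 1.05 RPKM in DMSO to 3.77, 3.68 and 3.59 in WM-3835 libraries (1.68 on the log2 scale, SE 0.29, adjusted p = 0.00037). The replicates of both groups were tight and the groups far apart, yet the WM-3835 level stayed below that of every control and knockout library. Krt14 was at 20.5, 22.5 and 24.4 in DMSO and 14.7, 17.5 and 18.0 in WM-3835 libraries, apart but not called (-0.43 on the log2 scale, SE 0.20, adjusted p = 0.17). Krt5 fell slightly, with DMSO 3 inside the WM-3835 range (-0.23 on the log2 scale, SE 0.08, adjusted p = 0.04). The 3 basal keratins thus did not move together. Krt5 had adjusted p from 0.0021 to 0.21 over 23 alternative settings and lost its call without knockout 2 (0.0504), without knockout 3 (0.0517), without DMSO 1 (0.14), without DMSO 2 (0.21), without WM-3835 2 (0.08), without WM-3835 3 (0.17), with the Xist level modelled (0.0521) and with knockout 3 alone (0.07).

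Krt19, a small type I keratin of simple and some stratified epithelia, was at 9.49, 7.45 and 8.70 in DMSO and 15.2, 12.7 and 14.3 in WM-3835 libraries, apart (0.71 on the log2 scale, SE 0.18, adjusted p = 0.0079). Krt20 was at 4.67, 5.08 and 3.48 in DMSO and 2.81, 2.78 and 2.71 in WM-3835 libraries, apart and lower (-0.67 on the log2 scale, SE 0.20, adjusted p = 0.026). Krt7 was at 16.2, 17.8 and 18.0 in DMSO and 20.4, 19.6 and 19.5 in WM-3835 libraries, just apart and not called (0.20 on the log2 scale, SE 0.13, adjusted p = 0.36). Simple keratins therefore had 1 call in each direction. For Krt18 the change was -0.26 on the log2 scale, SE 0.10, adjusted p = 0.064, which missed the threshold here and passed it in 12 of 23 alternative settings, and for Krt8 it was -0.16 on the log2 scale, SE 0.10, adjusted p = 0.31. Krt19 had adjusted p from 0.00045 to 0.12 over 23 alternative settings and lost its call with limma-voom (0.12). Krt20 had adjusted p from 0.0082 to 0.13 over 23 alternative settings and lost its call without DMSO 1 (0.094), without DMSO 2 (0.13), without WM-3835 1 (0.075), without WM-3835 2 (0.071), without WM-3835 3 (0.081) and with limma-voom (0.12).

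The largest falls were among root sheath, hair shaft and palm keratins of low level. Krt72 was at 1.75, 1.08 and 1.48 RPKM in DMSO and 0.243, 0.0167 and 0.311 in WM-3835 libraries (-2.95 on the log2 scale, SE 0.49, adjusted p = 0.0003), the latter on 17, 1 and 14 counts. Krt83, a hair shaft keratin, was at 0.921, 0.894 and 0.932 in DMSO and 0.0127, 0.134 and 0.158 in WM-3835 libraries (-3.19 on the log2 scale, SE 0.76, adjusted p = 0.0054), on 1, 9 and 8 counts. Krt9, the keratin of palm and sole epidermis, was at 1.59, 1.52 and 1.53 in DMSO and 0.113, 0.516 and 0.377 in WM-3835 libraries (-2.22 on the log2 scale, SE 0.46, adjusted p = 0.0021). None of the 3 pairs of groups overlapped, and all 3 calls were kept in the 23 alternative settings. Krt12, the corneal type I keratin, was at 4.11, 3.35 and 4.99 in DMSO and 1.44, 1.79 and 2.06 in WM-3835 libraries, also apart (-1.24 on the log2 scale, SE 0.36, adjusted p = 0.022), with 35.6% of its windows shared with the gene A830036E02Rik. Krt75, of the companion layer of the hair follicle, went up instead, from 1.11, 1.03 and 1.06 to 1.74, 2.01 and 1.82 (0.79 on the log2 scale, SE 0.25, adjusted p = 0.036). All 6 tested hair shaft keratins again had a negative change, with a median of -1.03 and 1 call, Krt83. Krt12 had adjusted p from 0.0002 to 0.1 over 23 alternative settings and lost its call without DMSO 1 (0.058), without DMSO 3 (0.1), without WM-3835 1 (0.1) and without WM-3835 2 (0.063). Krt75 had adjusted p from 0.0042 to 0.12 over 23 alternative settings and lost its call without DMSO 1 (0.09), without DMSO 2 (0.11), without DMSO 3 (0.11), without WM-3835 1 (0.072), without WM-3835 2 (0.12), without WM-3835 3 (0.085), with limma-voom (0.08) and without a filter on low counts (0.062).

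**Figure D3:**
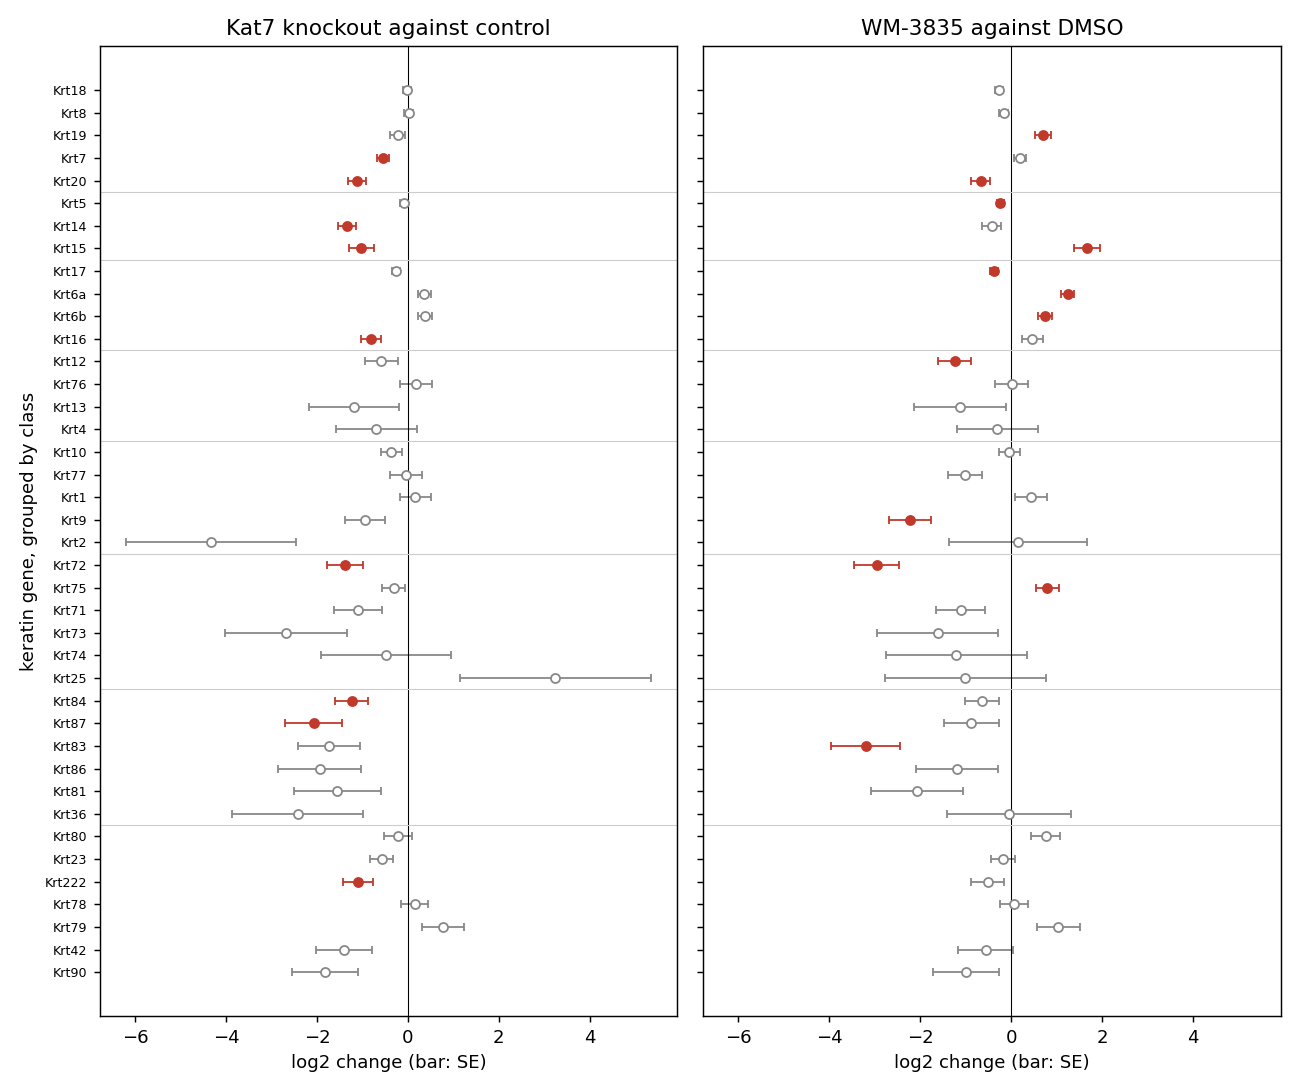
Log2 change of the 40 tested keratins, grouped by class, for knockout against control (left) and WM-3835 against DMSO (right; bars, SE; filled red, adjusted p under 0.05). In the knockout the 9 called keratins all lie left of 0, while with WM-3835 5 called keratins lie right of 0 and 7 left.

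Of the called keratins, Krt20 and Krt72 were lower in both comparisons, and Krt15 was lower in one and higher in the other. Another 6 were called in the knockout comparison and not with WM-3835, 9 with WM-3835 and not in the knockout, and 22 in neither. The 2 comparisons share no library, but both come from a single fit to all 12 libraries with a common estimate of spread. The share of all genes called in both was not counted, so these joint calls cannot be weighed against it. Whether the effects differ was tested as the knockout change minus the inhibitor change. This difference was called for 6 of the 40 keratins, all negative, against 10.1% of all genes called, 5.69% negative and 4.41% positive. At an unadjusted p under 0.05, 1 keratin had a positive difference by edgeR, and DESeq2 called 1, Krt72. The difference was -2.70 on the log2 scale, SE 0.39, adjusted p = 0.00018 for Krt15, -1.27 on the log2 scale, SE 0.32, adjusted p = 0.014 for Krt16 and -0.94 on the log2 scale, SE 0.24, adjusted p = 0.018 for Krt19. For Krt6a it was -0.88 on the log2 scale, SE 0.20, adjusted p = 0.0078, for Krt7 -0.74 on the log2 scale, SE 0.19, adjusted p = 0.015 and for Krt14 -0.91 on the log2 scale, SE 0.29, adjusted p = 0.0497. The 6 are the basal Krt14 and Krt15, the simple Krt7 and Krt19 and the stress keratins Krt6a and Krt16, and 0 keratins of the other classes were called. For Krt20 and Krt72, lower in both, the difference was -0.45 on the log2 scale, SE 0.28, adjusted p = 0.37 and 1.58 on the log2 scale, SE 0.63, adjusted p = 0.12. With the Xist level modelled, and again with knockout 3 standing alone for its group, Krt15 alone was called, and the call of Krt14 was lost in 17 of 22 alternative settings. Krt16 had adjusted p from 0.0036 to 0.094 over 22 alternative settings and lost its call without DMSO 1 (0.0506), without DMSO 3 (0.056), without WM-3835 3 (0.061), with the Xist level modelled (0.086) and with knockout 3 alone (0.094). Krt19 had adjusted p from 0.0032 to 0.21 over 22 alternative settings and lost its call without knockout 1 (0.061), without DMSO 2 (0.057), without WM-3835 1 (0.055), with limma-voom (0.11), with the Xist level modelled (0.19) and with knockout 3 alone (0.21). Krt14 had adjusted p from 0.0065 to 0.31 over 22 alternative settings and lost its call without control 1 (0.087), without knockout 1 (0.11), without knockout 2 (0.11), without knockout 3 (0.071), without DMSO 1 (0.11), without DMSO 2 (0.098), without DMSO 3 (0.072), without WM-3835 1 (0.058), without WM-3835 2 (0.095), without WM-3835 3 (0.11), with RLE scaling (0.0509), with upper-quartile scaling (0.0526), with DESeq2 (0.11), with limma-voom (0.15), with a replicate block (0.061), with the Xist level modelled (0.31) and with knockout 3 alone (0.31).

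Neighbouring keratins did not all share a direction. On chromosome 11, Krt15 and Krt19 stand side by side, and both rose with WM-3835, but the next tested gene, Krt9, fell by 2.22 on the log2 scale. In the knockout Krt14 and Krt16 fell next to Krt17, which was not called. On chromosome 15, Krt75, Krt6b and Krt6a follow each other and all rose with WM-3835, whereas Krt5, the next gene along, fell slightly. The tested keratins between Krt7 and Krt90 are the hair shaft keratins Krt87, Krt81, Krt86, Krt83 and Krt84, whose changes were all negative in both comparisons, with 2 called in the knockout and 1 with WM-3835. Krt7 itself was lower in the knockout and had a positive change, not called, with WM-3835. Reads of these hair keratins are partly shared: 35.5% of the windows of Krt81 and 33.5% of those of Krt86 occur in another gene, mainly each other, and 12.5% of those of Krt83 and 22.4% of those of Krt87 do too.

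**Figure D4:**
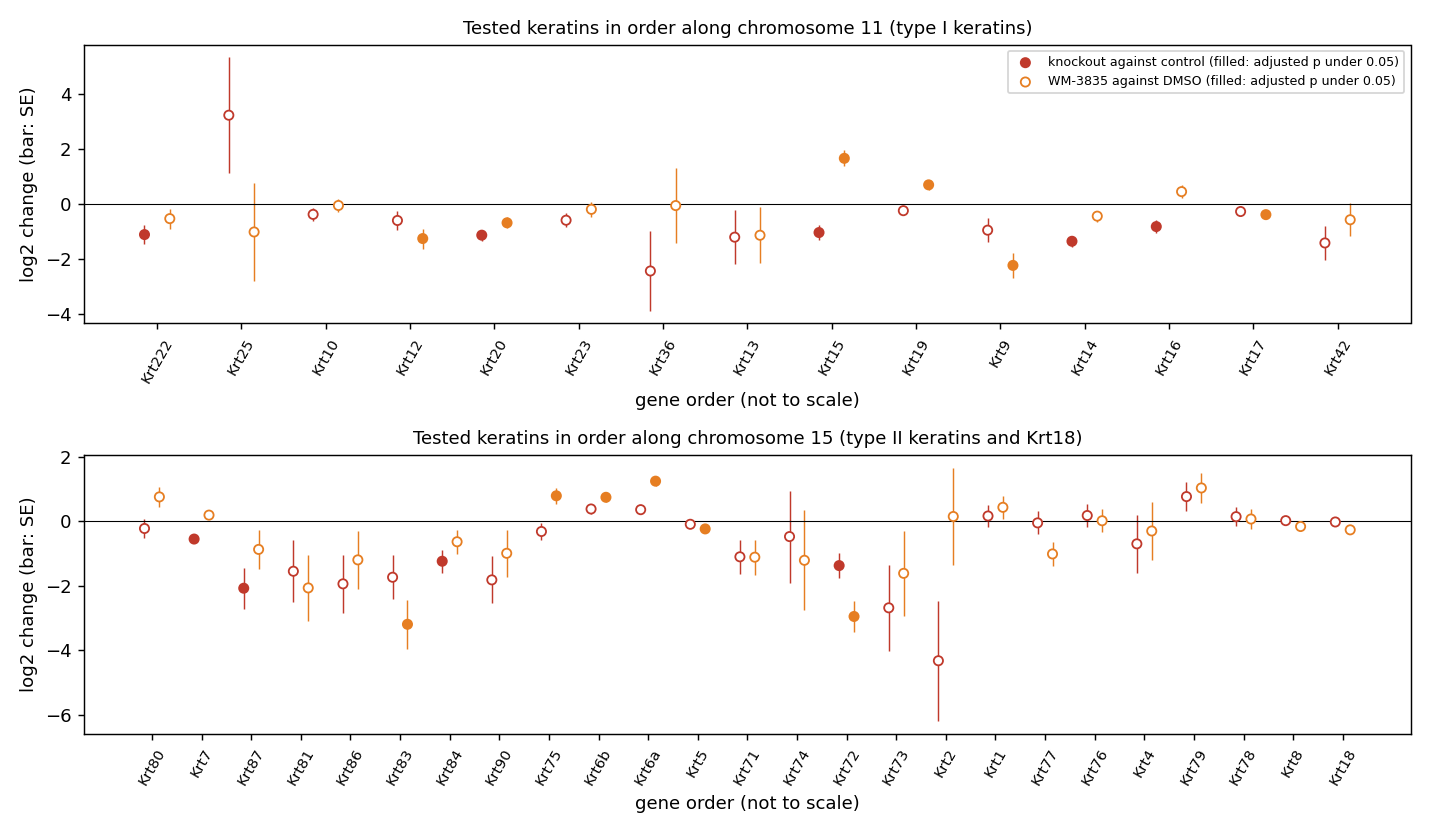
Log2 change (bars, SE) of the tested keratins in gene order along chromosome 11 (top, 15 genes) and chromosome 15 (bottom, 25 genes), for knockout against control (red) and WM-3835 against DMSO (orange; filled, adjusted p under 0.05). Distances are not to scale. Called genes of both directions lie next to each other, as with Krt6a and Krt5.

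The reference groups of the 2 comparisons differed in keratins to begin with. DMSO and control libraries differ in genotype label, in tamoxifen, in the solvent DMSO and in Xist, and these cannot be told apart, so the comparison is a description. In DMSO libraries 20 of the 40 keratins were lower than in control and 0 higher, against 24.6% of all genes called, 13.3% lower and 11.4% higher. At an unadjusted p under 0.05, edgeR's quasi-likelihood test had 0 higher, as did DESeq2 and limma-voom with adjustment. The DMSO libraries lay below the controls without overlap for 23 keratins (19.4% of all genes) and above them for 1, Krt25 (19.6% of all genes). Krt19 was the most changed by adjusted p, at 9.49, 7.45 and 8.70 RPKM in DMSO against 82.4, 45.2 and 51.3 in control libraries (-2.80 on the log2 scale, SE 0.18, adjusted p = 3.2e-09). Krt15 was at 1.15 ± 0.0977 (SD, n = 3) against 9.54 ± 4.55 (-3.05 on the log2 scale, SE 0.29, adjusted p = 4.3e-07), Krt5 at 1340.0 ± 167 against 2228 ± 94.4 (-0.73 on the log2 scale, SE 0.08, adjusted p = 1.2e-06), and Krt23, a small type I keratin, at 1.81 ± 0.177 against 9.67 ± 1.44 (-2.42 on the log2 scale, SE 0.27, adjusted p = 2.8e-06). Krt8, Krt18 and Krt17 had changes of 0.07, 0.07 and -0.09 and were not called. With the Xist level modelled, 9 keratins were called lower and 1 higher. Because control libraries serve this comparison and the knockout comparison, and DMSO libraries this one and the inhibitor comparison, the lists are not independent and their overlap is not counted. Summed fibroblast and endothelial markers, too, stood below the controls in every DMSO library. The endothelial sum was mostly Tek in control (14.1 ± 6.73 CPM, against 1.71 ± 0.269 with DMSO). Of 4 tested endothelial markers, 2 had a negative and 2 a positive change, with 1 called lower. Of the 8 fibroblast markers 4 were called lower and 1, Pdgfrb, higher (11.3 ± 1.41 CPM in control, 18.0 ± 3.55 with DMSO). The part of these markers in the difference was not tested.

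Genes that anchor or accompany keratin filaments were read from lists of other proteins. Of 11 genes for hemidesmosomes and plakins, which tie basal keratin filaments to the basement membrane, 5 fell in the knockout and 0 rose: Itga6 (-0.79, SE 0.11, adjusted p = 9.8e-05), Col17a1 (-1.54, SE 0.26, adjusted p = 0.0008), Itgb4 (-0.54, SE 0.10, adjusted p = 0.0014), Lama3 (-0.75, SE 0.17, adjusted p = 0.007) and Lamb3 (-0.46, SE 0.15, adjusted p = 0.0486). Of all tested genes 8.06% were called lower and 6.12% higher. The list's median change was -0.13, and 1 of the list was called lower both with the Xist level modelled and with knockout 3 alone, while 2 of the list rose without knockout 1. With WM-3835, 4 rose, Evpl (1.01, SE 0.16, adjusted p = 0.00021), Cd151 (0.51, SE 0.10, adjusted p = 0.00092), Ppl (0.36, SE 0.09, adjusted p = 0.0064) and Plec (0.28, SE 0.08, adjusted p = 0.028), and Dst fell (-0.45, SE 0.07, adjusted p = 0.00031), with a median of 0.19, beside 9.34% of all genes called higher and 9.35% lower. Evpl and Ppl encode envoplakin and periplakin of the cornified envelope, and Plec and Dst large linker proteins. The knockout and inhibitor changes differed for 7 of the 11 (10.1% of all genes), of which 6 were negative, among them Itga6, Itgb4 and Col17a1.

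Of 16 desmosome genes, Perp was higher in the knockout (0.28, SE 0.08, adjusted p = 0.028) and Dsg1a lower (-0.70, SE 0.16, adjusted p = 0.0065). That is 12.5% of the list, no more than the 14.2% of all genes called. With WM-3835, 4 were higher, Pkp3 (0.47, SE 0.09, adjusted p = 0.0015), Dsg3 (1.10, SE 0.22, adjusted p = 0.0017), Dsc2 (0.31, SE 0.07, adjusted p = 0.0035) and Jup (0.30, SE 0.07, adjusted p = 0.0061). Pkp1 (-0.28, SE 0.07, adjusted p = 0.0055) and Dsg2 (-0.28, SE 0.08, adjusted p = 0.019) were lower, and the called genes were together 37.5% of the list against 18.7% of all genes. The medians were 0.00 and -0.03. Desmogleins and desmocollins are the adhesion molecules of desmosomes, and plakophilins and plakoglobin (Jup) link them to the filaments.

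Transcription factors of stratified epithelia were also read. Of 23 tested, Trp63, the master regulator of basal epithelium, fell in both comparisons. It was at 287, 274 and 263 CPM in control and 194, 178 and 163 in knockout libraries (-0.62, SE 0.08, adjusted p = 5.3e-05), and at 234, 265 and 232 in DMSO and 129, 123 and 117 in WM-3835 libraries (-0.99, SE 0.08, adjusted p = 1.4e-07). Neither pair of groups overlapped for Trp63. In the knockout Klf4 fell as well (-0.73, SE 0.12, adjusted p = 0.00057) and Tfap2a rose (0.57, SE 0.18, adjusted p = 0.042), so that 3 of the 23 were called (13.0%), no more than the 14.2% of all genes. For these regulators and the desmosome genes, the knockout calls with the Xist level modelled or with knockout 3 alone are not given here. The part of the Xist difference in them was not tested beyond those settings. With WM-3835, 7 rose, led by Elf3 (1.05, SE 0.12, adjusted p = 5.2e-06), Ehf (0.92, SE 0.12, adjusted p = 3.7e-05), Tfap2c (0.70, SE 0.11, adjusted p = 0.00012) and Tfap2a (1.14, SE 0.18, adjusted p = 0.00018), and 4 fell: Trp63, Tfap2b, Foxn1 and Grhl3. These 11 are 47.8% of the list against 18.7% of all genes called. The median was -0.01 in the knockout and 0.27 with WM-3835. Elf3 and Ehf are ETS factors of differentiating epithelia.

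Among 17 tested genes of other intermediate filaments and their partners, Vim, the filament of mesenchymal cells, rose in both comparisons, by 0.55, SE 0.12, adjusted p = 0.0063 in the knockout and by 0.98, SE 0.12, adjusted p = 1.6e-05 with WM-3835, and Prph, the neuronal peripherin, fell in both (-1.44, SE 0.24, adjusted p = 0.00064 and -1.32, SE 0.23, adjusted p = 0.00055). In the knockout Synm also rose (0.86, SE 0.13, adjusted p = 0.00036), and Lmna (-0.45, SE 0.09, adjusted p = 0.0027), Nes (-0.76, SE 0.20, adjusted p = 0.014) and Nefh (-1.22, SE 0.37, adjusted p = 0.033) fell. With WM-3835, Eppk1, whose product epiplakin binds keratin filaments, rose (1.17, SE 0.13, adjusted p = 6e-06), as did Nes (0.78, SE 0.20, adjusted p = 0.009) and Lmnb1 (0.40, SE 0.13, adjusted p = 0.042). In all, 6 of the 17 were called in the knockout (35.3%, against 14.2% of all genes) and 5 with WM-3835 (29.4%, against 18.7%). The medians were -0.06 and -0.05. In the knockout, 0 of these genes rose and 1 fell both with the Xist level modelled and with knockout 3 alone.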

How the data were processed

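RNA from sorted thymic epithelial cells was sequenced as 75-base pairs with a kit that does not mark strand, per the labels' protocols. The authors counted with featureCounts on mm10, per the submitters' processing notes, and deposited raw counts per Entrez gene with symbol and gene length, per the file headers. The aligner, the annotation and how shared reads were counted are each not given in the sources used here. Genes without a symbol (1312 of 27179; 0.657% to 0.743% of counts) were left out. The tests ran in edgeR 4.0.16 (R 4.3.3): TMM scaling, filterByExpr (18670 genes left, 40 of 54 keratins), and a quasi-likelihood fit of 4 group means to all 12 libraries. Genes were called at a two-sided Benjamini-Hochberg adjusted p under 0.05 over all genes tested. CPM and RPKM were computed from the deposited counts with TMM-scaled totals and deposited lengths. Library totals of 26656847 to 52368012 counts limit the precision of members with few counts. The p-values rest on a spread estimated over the 3 replicates of all 4 groups together, which the series describes as biological replicates. That spread takes in groups outside a comparison. In a fit of the 6 libraries compared, calls over all genes went from 2646 to 1157 in the knockout and from 3490 to 6070 with WM-3835.

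The keratins, their classes and the other gene lists were chosen with earlier results of these data known. Values in every library are given for keratins called in either main comparison and for the 10 with the highest mean RPKM. From each list of filament, junction and regulator genes, up to 5 called genes with the smallest adjusted p are named. For some of these lists further called genes are named too, and cell type markers are named as examples. Alternatives were DESeq2 1.42.0, scaling by RLE or by upper quartile, limma-voom (limma 3.58.1) with and without quality weights per group, no filter, a filter of CPM over 1 in 3 libraries, a fit of the 6 libraries compared, a replicate block, Xist (log2 CPM) as a covariate, leaving out knockout 1 and 2 together, and each library left out in turn. Class totals were also computed with plain totals and as TPM. The fit was tested on simulated data. Promoter sequences came from RefSeq (GRCm38.p6), and shared 75-base windows were counted over GENCODE M21 transcripts.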

Additional observations from a re-analysis of the deposited data

Results flagged for a closer look

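The knockout effect and the inhibitor effect differed, by the test of the difference in edgeR's quasi-likelihood fit, for 6 keratins, and each difference is the knockout change minus the WM-3835 change on the log2 scale. It was -2.70 for Krt15, the only keratin called in opposite directions, lower in the 3 knockout libraries than in the 3 controls and higher in the 3 WM-3835 libraries than in the 3 DMSO libraries. It was -1.27 for Krt16, -0.94 for Krt19, -0.91 for Krt14, -0.88 for Krt6a and -0.74 for Krt7. In the same fit, 10.1% of all genes were called for this difference. The difference of Krt15 alone stayed called with the Xist level modelled and with knockout 3 standing alone for its group.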

How the results depend on the processing

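There were 23 alternative settings (22 for the difference of effects and for DMSO against control, where the fit of 6 libraries gives no value). In the knockout, with WM-3835 and for the difference of effects, 0 values of keratins called in the main or the alternative setting changed sign. Signs of single keratins were not compared between settings for DMSO against control. For keratins called in neither, the sign of the change differed in 27 values of 13 keratins in the knockout, 22 values of 8 with WM-3835 and 36 values of 12 for the difference of effects. Class totals moved by less than the spread between replicates on the plain library total and as TPM.

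Counts that moved by over 1.5 times were these, and the cause was not tested unless fewer libraries entered. In the knockout, 9 lower calls became 5 with quality weights per group, 1 with the Xist level modelled and 1 with knockout 3 standing alone for its group, and ran from 4 to 9 with a library left out, and 0 higher calls became 1 (Krt6a) without a filter on low counts, and ran from 0 to 1 with a library left out. With WM-3835, 5 higher calls became 3 with limma-voom (4 to 6 with a library left out), and 7 lower calls became 12 with quality weights per group (4 to 8 with a library left out). For the difference of effects, 6 negative calls became 1 with the Xist level modelled and 1 with knockout 3 alone (4 to 8 with a library left out), and 0 positive calls became 1 with DESeq2. For DMSO against control, 20 lower calls became 9 and 0 higher calls became 1 with Xist as a covariate (18 to 21 and 0 to 1 with a library left out). Lower calls over all genes moved too. With quality weights they went from 1504 to 789 in the knockout and from 1746 to 3245 with WM-3835. With the Xist level modelled they went from 1504 to 330 in the knockout and from 2479 to 572 for DMSO against control. With limma-voom, all calls with WM-3835 went from 3490 to 3421.

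Same-numbered libraries showed little tendency to deviate together from their group means (correlations from -0.02 to 0.06). With 3 libraries per group, this cannot exclude that the numbers pair some of the samples. With a replicate block, 10 keratins were lower in the knockout, 5 were higher and 9 lower with WM-3835, and 5 had a negative difference of effects. Keratins with few counts, such as Krt83 with 1, 9 and 8 counts under WM-3835, are limited by depth, and 14 keratins could not be tested.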

Other observations

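The keratin-associated genes (Krtap), which encode the matrix proteins that embed keratins in the hair shaft and are no keratins themselves, were nearly silent. The count table holds 55 of them, of which 24 had a count in any library, 2 passed the filter on low counts, and the highest count in a library was 44. Over all 12 libraries they reached 475 counts together, while the hair shaft keratins Krt84 and Krt87 alone had 1663 and 788.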
